A study of Polypterus senegalus with 8 samples.

Results

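The mRNA of bichir pectoral fins at 14 days post amputation (dpa) was compared with that of uninjured fins at 0 dpa to ask how far a regrowing fin had returned to the uninjured profile. The bichir, Polypterus senegalus, is a ray-finned fish that rebuilds its pectoral fins after injury. The comparison rested on 2 of the 8 libraries of the series, namely the mRNA library of each stage. Fins of the 14 dpa group had been amputated under anaesthesia with MS222, and fins of the 0 dpa group were uninjured. The study's methods do not say whether tissue of both groups came from the same part of the fin. Each stage was a single pool of tissues in the study's methods, so the spread between fish is unknown and no difference below has a replicate check. Reads had been assigned to transcripts assembled without a genome. Transcripts were summed over assembly components, which are groups of transcripts that resemble genes. The table held 94050 components, of which 28836 had a mean of at least 1 CPM (reads scaled to a library total of 1000000) over the 4 mRNA libraries and were counted. Only 2565 components carried a gene symbol, all from zebrafish names in the tables of the study, and the remaining components stayed unnamed. A symbol belongs to certain transcripts of its component. In 17 of the 141 named components considered for the text, these transcripts held under 50% of the component's reads, and in 18 their own change was over 1.5-fold away from that of the component.

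Fin regrowth starts with closure of the wound by epidermis, followed by the gathering of dividing, undifferentiated cells into a blastema beneath it. The blastema is kept growing by signals of the FGF, IGF, Wnt and BMP families, while proteases loosen the old matrix and new collagen and fibrillin are laid down. Muscle, nerve and skeleton differentiate again in the later phase, in the part of the new appendage closest to the stump. Levels in whole tissue cannot separate fewer cells of a type from less RNA per cell.

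Depth was alike between the libraries, with 38377535 reads at 14 dpa and 39121698 reads at 0 dpa, so that 1 read was worth 0.0261 CPM at 14 dpa and 0.0256 CPM at 0 dpa. The reads were spread very differently. At 14 dpa 933 components were needed to reach 50% of the reads, against 114 components at 0 dpa. The 10 most abundant components took 9.32% of reads at 14 dpa (Wilson 95% interval 9.31% to 9.33%) and 19.5% at 0 dpa (19.54% to 19.56%), and 4 of the 10 were in both sets. The single most abundant component was the same unnamed one in both libraries, at 1.44% of reads at 14 dpa and 4.91% at 0 dpa. The next 4 components of the 0 dpa library, also unnamed, ranged from 0.0422% to 0.923% of reads at 14 dpa, against 1.55% to 2.99% at 0 dpa. Of all components, 1501 were listed at 0 in the 14 dpa library (1.60%), against 31559 in the 0 dpa library (33.6%), and the 3 and 7 dpa libraries listed 2796 and 5987 at 0. With 1 library a stage, what is particular to the 0 dpa library and what is particular to uninjured fins cannot be told apart, which bears on every value of 14 against 0 dpa. Intervals throughout describe counting error alone and take each read as independent. Reads that stem from PCR copies of 1 molecule are counted separately, so the intervals may be too narrow.

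The 14 dpa library stood far from the 0 dpa library and close to the 3 dpa library. Over all components counted, 76.5% were over 1.5-fold apart at 14 against 0 dpa, while the 3 dpa library differed from the 14 dpa library in 9.59% and the 7 dpa library in 31.3%. With scaling by a trimmed mean of log ratios (TMM), which centres the bulk of components, the shares were 56.7%, 6.94% and 22.6% in the same order. The share of reads in common, the sum over components of the smaller of both shares, was 53.8% for 14 against 0 dpa, 89.9% for 14 against 3 dpa and 82.5% for 14 against 7 dpa. Spearman's correlation of levels across these components, given as a description only, was 0.74, 0.96 and 0.90 for the same pairs. The 7 dpa library differed from the 3 dpa library in 27.4% of components, or 18.2% under TMM. The earlier stages were similarly far from the uninjured fin, with 77.4% of components over 1.5-fold apart at 3 dpa and 73.0% at 7 dpa. All 3 of these comparisons share the 0 dpa library. Under TMM the shares were 56.7% at 14 dpa, 58.0% at 3 dpa and 47.9% at 7 dpa, so the 7 dpa library and not the 14 dpa library was nearest to uninjured tissue on either scaling.

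**Figure D1:**
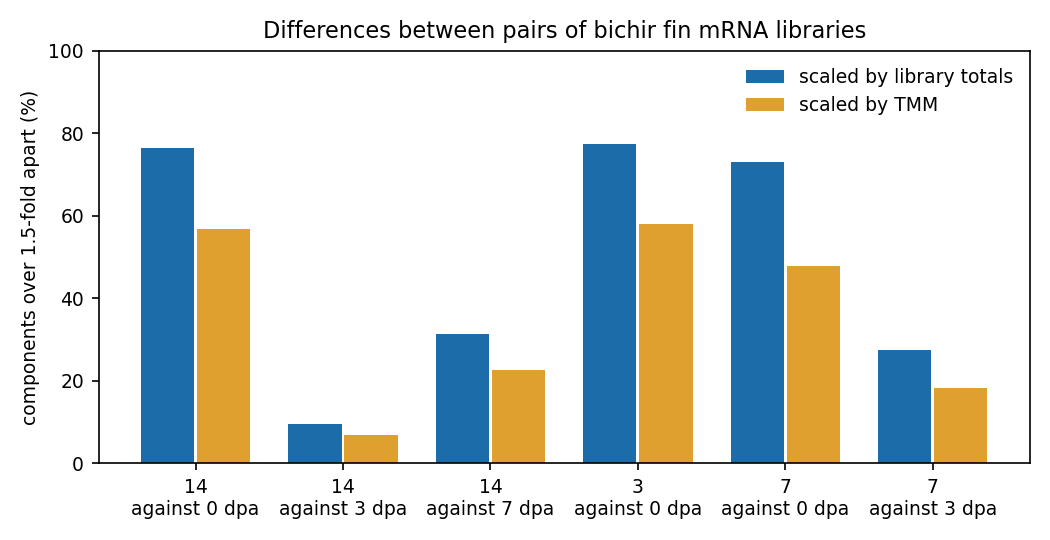
Share of the 28836 components (y axis, percent) that were over 1.5-fold apart in each pair of mRNA libraries (x axis), scaled by library totals in blue and by TMM in orange. The bars for 14 against 0 dpa reach 76.5% and 56.7%, and those for 14 against 3 dpa only 9.59% and 6.94%.

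Changes at 14 against 0 dpa were taken as differences of log2(CPM + 1), a scale that understates changes of low components. By library totals, 19470 components (67.5%) were over 1.5-fold higher at 14 dpa and 2580 (8.95%) over 1.5-fold lower. The median component differed by 1.06 on the log2 scale, so a change near that value places a gene with the bulk of components. Under TMM the median component differed by 0.14, and 9054 components (31.4%) were over 1.5-fold higher and 7284 (25.3%) lower. The split between higher and lower is therefore set by the scaling, and each list below is given with the median of 1.06 in view. Values are by library totals unless TMM is named. For the 679 components past the filter found in the table of orthologs, the median was 1.15, with 462 higher and 88 lower. The symbols of that table were drawn from other tables, among them the lists of mRNAs up or down in common across species. Some of its members were also in those lists. Other names came from those lists. The study chose the lists partly on the 7 and 0 dpa libraries used here, so their direction is not independent evidence. Counts below for members named in the ortholog table share this limit in part. Unnamed components were among the largest differences each way. comp53950_c0 had 11605 reads at 14 dpa and 3 reads at 0 dpa, a ratio of 3943 with a counting interval of 1349 to 19124. comp55758_c0 had 12285 reads at 14 dpa and 77 at 0 dpa, a log2 change of 6.76. In the other direction comp56344_c1 had 10 reads at 14 dpa and 8821 at 0 dpa, and comp55324_c0 had 6 at 14 dpa and 7052 at 0 dpa.

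**Figure D2:**
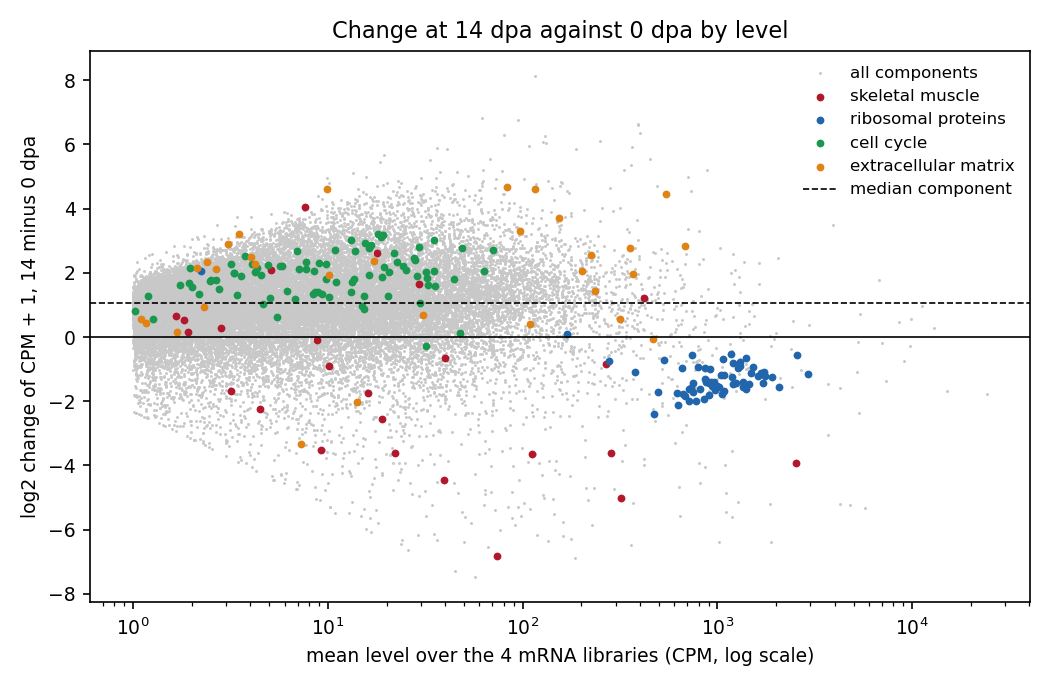
Log2 change of CPM + 1 at 14 minus 0 dpa (y axis) against the mean level over the 4 mRNA libraries (x axis, CPM on a log scale) for 28836 components in grey. Skeletal muscle (red) and ribosomal protein components (blue) lie mostly below 0, and cell cycle (green) and extracellular matrix components (orange) lie mostly above the dashed line of the median component at 1.06.

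Transcripts of skeletal muscle were far below their 0 dpa level at 14 dpa. The study's discussion describes skeletal muscle as absent from bichir fins, yet the 0 dpa library held these transcripts. A difference in the tissue taken at each stage was not tested. Of the 31 components with a muscle name, 25 passed the filter. Of these 15 were over 1.5-fold lower and 6 higher, beside 8.95% and 67.5% of all components. The median log2 change was -0.91. The 9 members named in the ortholog table held 7 lower and 1 higher, with a median of -2.56. Of the 31, 12 had a name only from the list of mRNAs down in common and 5 only from that of mRNAs up in common. The count is therefore not independent. The summed level of the list was 1722 CPM at 14 dpa and 12510.5 CPM at 0 dpa, or 13.8% of the uninjured level. Much of that sum was 1 component named for the enolases eno1a and eno3, enzymes of glycolysis of which eno3 is the muscle form. It had 21137 reads at 14 dpa and 325020 at 0 dpa, a log2 change of -3.91. Of its named transcripts, comp25666_c1_seq2 had 6872 at 14 dpa and 309952 at 0 dpa, and comp25666_c1_seq1 had 14265 at 14 dpa and 15068 at 0 dpa. Without it the list summed to 1171 CPM at 14 dpa and 4203 CPM at 0 dpa, or 27.9%.

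The largest differences were in genes of muscle respiration, the sarcomere and calcium storage. cox6a2, a muscle and heart subunit of cytochrome c oxidase, had 61 reads at 14 dpa and 11441 at 0 dpa, which is 1.59 CPM at 14 dpa and 292 CPM at 0 dpa. Its log2 change of -6.82 (-7.05 to -6.59) was the lowest of all named components with a mean of at least 10 CPM. neb, which encodes the thin-filament ruler nebulin, had 1431 reads at 14 dpa and 48288 at 0 dpa (comp16999_c0), a difference of -5.01 on the log2 scale (-5.09 to -4.94). Other neb components past the filter differed less, at -3.61, -0.91, -0.64, -0.095 and 0.16. HRC, a calcium-binding protein of the sarcoplasmic reticulum, had 228 reads at 14 dpa and 5896 at 0 dpa. The 14 dpa library was nonetheless above the stage before it for these genes. The neb component comp16999_c0 had 411 reads at 3 dpa and 78 at 7 dpa, and HRC had 62 at 3 dpa and 2 at 7 dpa. Of the 25 members, 22 were over 1.5-fold higher at 14 than at 7 dpa, where 24.1% of all components were, and 16 were higher than at 3 dpa, where 7.60% of all components were. cox6a2 had 76 reads at 3 dpa and 14 at 7 dpa, so its 61 reads at 14 dpa were above the count at 7 dpa but not that at 3 dpa.

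Of the 6 members higher at 14 dpa, 5 carried the name dmd or dysf, genes of the muscle cell membrane, and the remaining one was myom3, a sarcomere protein, at 0.66. dysf, the membrane repair protein dysferlin, had 1147 reads at 14 dpa and 159 at 0 dpa in 1 component, and another had 296 at 14 dpa and 41 at 0 dpa. dmd, which encodes dystrophin, had 628 reads at 14 dpa and 2 at 0 dpa, a ratio of 320 with a counting interval of 88.2 to 2649. acta2, the actin of smooth muscle and vessel walls, had 103 reads at 14 dpa and 4398 at 0 dpa, a log2 change of -4.94. Actins are near-identical to each other, so this component may hold reads of another actin. myh11a shared a component with myh10 and had 79.7 CPM at 14 dpa and 64.5 CPM at 0 dpa, while its named transcripts had 860 reads at 14 dpa and 1579 at 0 dpa. rgs5, a regulator of G-protein signalling in pericytes, had 74.1 CPM at 14 dpa and 26.9 at 0 dpa. The 3 components of that list past the filter thus held 1 higher and 1 lower, beside 67.5% and 8.95% of all components. Their median was 0.30 by totals, or -0.76 relative to the median component, and -0.92 under TMM.

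Genes of myelin and nerve that passed the filter were mostly low. Of the 18 components with such a name, 11 did not pass. Of the 7 that did, 4 were lower and 1 higher, beside 8.95% and 67.5% of all components. Their median was -1.94, whereas without the filter the list median was 0.044. The 2 between were cadm3 and prx, at 0.032 and -0.14. Of the 18, 11 had a name only from the list of mRNAs down in common, so the count is not independent of the 0 dpa library. Of the 2 past the filter that were named in the ortholog table, 1 was lower. mpz, the main myelin protein of Schwann cells, had 194 reads at 14 dpa and 1743 at 0 dpa. mag, a myelin adhesion protein, had 24 reads at 14 dpa and 276 at 0 dpa. It passed the filter through its 0 dpa level alone, at 7.05 CPM against under 1 CPM at each later stage. mbp, myelin basic protein, had 977 reads at 14 dpa and 3932 at 0 dpa. ache, the acetylcholinesterase of nerve-muscle junctions, had 401 reads at 14 dpa and 2995 at 0 dpa. All 4 were thus at least 1.5-fold below the uninjured fin. The summed level was 75.6 CPM at 14 dpa and 261 CPM at 0 dpa, and it had been 64.6 CPM at 3 dpa and 25.5 CPM at 7 dpa. map1ab, a microtubule protein of neurons, was the member over 1.5-fold higher, with 80 reads at 14 dpa and 8 at 0 dpa.

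**Figure D3:**
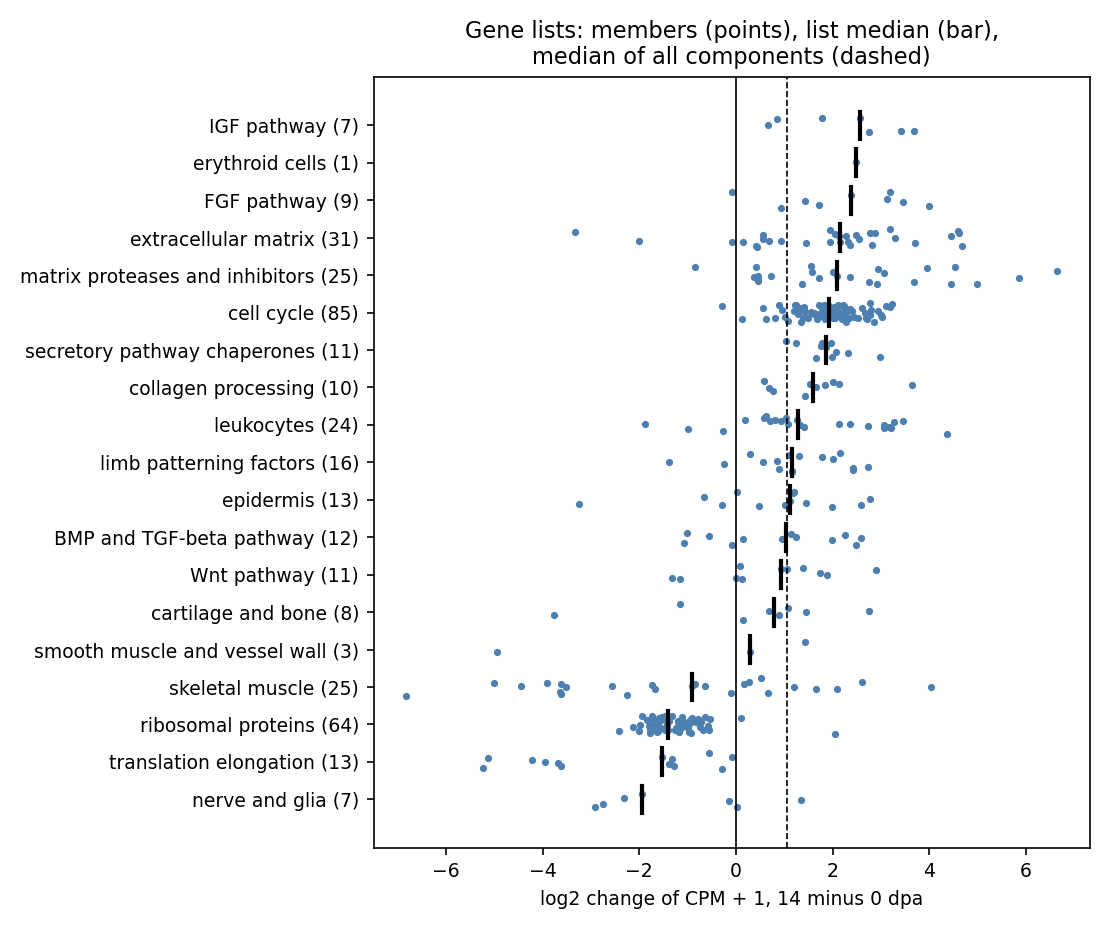
Log2 change of CPM + 1 at 14 minus 0 dpa (x axis) for every list member past the filter (points, spread vertically at random), with the list median as a black bar and the number of members in brackets. The dashed line is the median of all components at 1.06, and the solid line is 0. Nerve, translation, ribosomal and skeletal muscle medians lie below 0, from -1.94 to -0.91.

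Ribosomal protein mRNAs were lower at 14 dpa as a block. Of 70 components, 64 passed the filter. Of these 59 were over 1.5-fold lower and 1 higher, beside 8.95% and 67.5% of all components. The median was -1.40, which is -2.46 relative to the median component. Of the 18 members named in the ortholog table, 17 were lower. Since 48 of the 70 had a name only from the list of mRNAs down in common, the count over the whole list is not independent of the 0 dpa library. Ortholog members such as rpl7a and rpl4 were in that list too. Their summed level was 46670.3 CPM at 14 dpa and 113147 CPM at 0 dpa. It had been 41768 CPM at 3 dpa and 72324 CPM at 7 dpa, and 42 of the 64 were over 1.5-fold lower at 14 than at 7 dpa, where 7.25% of all components were. The largest difference was rpl38, with 7257 reads at 14 dpa and 39527 at 0 dpa (log2 change -2.41). rpl31 followed with 10914 reads at 14 dpa and 48937 at 0 dpa, and rpl36 with 15737 at 14 dpa and 64500 at 0 dpa. The member over 1.5-fold higher was a low component named rps10, with 201 reads at 14 dpa and 20 at 0 dpa. rplp2l differed little by totals, at 172 CPM at 14 dpa and 161 CPM at 0 dpa.

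Translation elongation genes were mostly lower at 14 dpa, by differing amounts. Of 13 components, 10 were over 1.5-fold lower and none higher, beside 8.95% and 67.5% of all components, with a median of -1.53. Under TMM all 13 were lower, beside 25.3% of all components. Of the 7 named in the ortholog table, 5 were lower by totals. As 6 of the 13 had a name only from the list of mRNAs down in common, the count is not independent. The main elongation factor component, eef1a1l1 (comp16980_c0), was the most abundant named component in both libraries. It had 337437 reads at 14 dpa and 421385 at 0 dpa, a log2 change of -0.29 by totals and -1.54 under TMM. Other components that carry the same name were much lower. comp59918_c0 had 20 reads at 14 dpa and 2051 at 0 dpa, and comp28247_c0 had 22 at 14 dpa and 1114 at 0 dpa. The former passed the filter through its 0 dpa level alone, at 52.4 CPM against under 1 CPM at each later stage. eef2l2, a form of elongation factor 2, had 96 reads at 14 dpa and 5153 at 0 dpa (-5.24). Components of 1 family can share reads, so how reads were divided among them is uncertain. gnb2l1, the ribosomal scaffold RACK1, had 1378 CPM at 14 dpa and 3369 CPM at 0 dpa.

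Genes of the cell cycle were above the bulk of components. Of 104 components, 85 passed the filter. Of these 82 were over 1.5-fold higher at 14 dpa and none lower, beside 67.5% and 8.95% of all components. The median was 1.92, or 0.86 relative to the median component. Under TMM 60 were higher and 2 lower, beside 31.4% and 25.3%. All 27 members named in the ortholog table were higher, with a median of 1.73, and 71 of the 104 had a name only from the list of mRNAs up in common. Their summed level was 1860 CPM at 14 dpa and 453 CPM at 0 dpa, with 1491 CPM at 3 dpa and 1426 CPM at 7 dpa. In 73 of the 85 the 14 dpa library was the highest of the 4 by totals, a place it held for 32.3% of all components. Under TMM that share of all components was 18.4%, and the count for this list was not taken.

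Genes of mitosis led this list. ercc6l, a DNA helicase of mitotic centromeres, had 1090 reads at 14 dpa and 84 at 0 dpa (log2 change 3.22). anln, which encodes the cytokinesis protein anillin, had 1177 reads at 14 dpa and 97 at 0 dpa (3.19). kif11, the kinesin that pushes spindle poles apart, had 1165 reads at 14 dpa and 103 at 0 dpa (3.11). All 3 were higher at 14 dpa than at 3 or 7 dpa. wdhd1, a replication factor, had 1175 reads at 14 dpa and 1476 at 0 dpa in comp57696_c0, within the 1.5-fold limit and the lowest change of the list. Its named transcript held only 7 of these reads at 14 dpa and none at 0 dpa, and the other wdhd1 components were at 1.92 and 1.77.

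Matrix genes were higher at 14 dpa in most of their measured members. Of 55 components, 31 passed the filter, and of these 23 were higher and 2 lower, beside 67.5% and 8.95% of all components, with a median of 2.16. Under TMM 20 were higher and 5 lower, beside 31.4% and 25.3%. Of the 14 named in the ortholog table, 11 were higher and 0 lower. Of the 55, 25 had a name only from the list of mRNAs up in common and 4 only from that of mRNAs down in common. The count is therefore not independent. The summed level was 6089 CPM at 14 dpa and 1592 CPM at 0 dpa, with 3484 CPM at 3 dpa and 5135 CPM at 7 dpa. Of the 31, 21 were over 1.5-fold higher at 14 than at 3 dpa, beside 7.60% of all components. fbn2b, a fibrillin of matrix microfibrils, had 53662 reads at 14 dpa and 2463 at 0 dpa, after 8709 at 3 dpa and 20703 at 7 dpa. Its log2 change was 4.45 (4.39 to 4.51). emilin1b, an elastic-fibre protein, had 6907 reads at 14 dpa and 238 at 0 dpa. hmcn1, the basement membrane protein hemicentin, had 1174 reads at 14 dpa and 11 at 0 dpa. fras1, which ties epidermis to the matrix below it, had 7611 reads at 14 dpa and 282 at 0 dpa. fn1, fibronectin, was not different by 1.5-fold, with 16577 reads at 14 dpa and 17766 at 0 dpa. podn, a small proteoglycan, was over 1.5-fold lower, with 385 reads at 14 dpa and 1701 at 0 dpa in 1 component, while another had 61 at 14 dpa and 982 at 0 dpa.

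Enzymes that mature collagen were described next. All 10 components passed the filter and all were over 1.5-fold higher, beside 67.5% of all components, with a median of 1.60. Under TMM 4 of the 10 were higher and 0 lower, beside 31.4% and 25.3%. plod2, a lysyl hydroxylase, had 1539 reads at 14 dpa and 90 at 0 dpa, against 309 and 756 at 3 and 7 dpa. bmp1a, the procollagen proteinase, had 5301 and 1200 reads at 14 and 0 dpa. lox, which crosslinks collagen, had 3171 reads at 14 dpa and 769 at 0 dpa, with 542 at 3 dpa. The chaperones of the secretory pathway, through which collagen is folded, had 11 of 24 components past the filter. All 11 were higher, beside 67.5% of all components, with a median of 1.87. Under TMM 6 were higher and 0 lower, beside 31.4% and 25.3%. Of the 24, 10 had a name only from the list of mRNAs up in common. All 8 members past the filter named in the ortholog table were higher by totals. hyou1, a stress-induced chaperone of the endoplasmic reticulum, led with 6715 reads at 14 dpa and 835 at 0 dpa.

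Matrix proteases and their inhibitors were mostly higher than at 0 dpa, and their summed level was below that at 7 dpa. Of 28 components, 25 passed the filter. Of these 19 were higher and 1 lower, beside 67.5% and 8.95% of all components, with a median of 2.10. Under TMM 15 were higher and 5 lower, beside 31.4% and 25.3%. Of the 28, 13 had a name only from the list of mRNAs up in common, so the count is not independent. Of the 9 named in the ortholog table, 6 were higher and 0 lower by totals, with a median of 1.56. mmp13b, a collagenase, had 8544 reads at 14 dpa and 48 at 0 dpa in comp59594_c0, which differed by 6.65 on the log2 scale (6.41 to 6.88), and comp59559_c0, of the same name, had 3105 reads at 14 dpa and 16 at 0 dpa. mmp13a had 15904 reads at 14 dpa and 662 at 0 dpa. The 7 dpa library held 43896, 23987 and 76780 reads of these components in the same order. The summed level of the list was 3955 CPM at 14 dpa and 1031 CPM at 0 dpa, with 4744 CPM at 3 dpa and 8495 CPM at 7 dpa. Member by member, 11 of the 25 were over 1.5-fold lower and 6 higher than at 7 dpa, with a median of -0.061. Over all components these shares were 7.25% and 24.1%. ctsla, a lysosomal cathepsin, was the member below, with 1310 reads at 14 dpa and 2447 at 0 dpa. Its named transcript alone went the other way, with 467 reads at 14 dpa and 106 at 0 dpa.

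**Figure D4:**
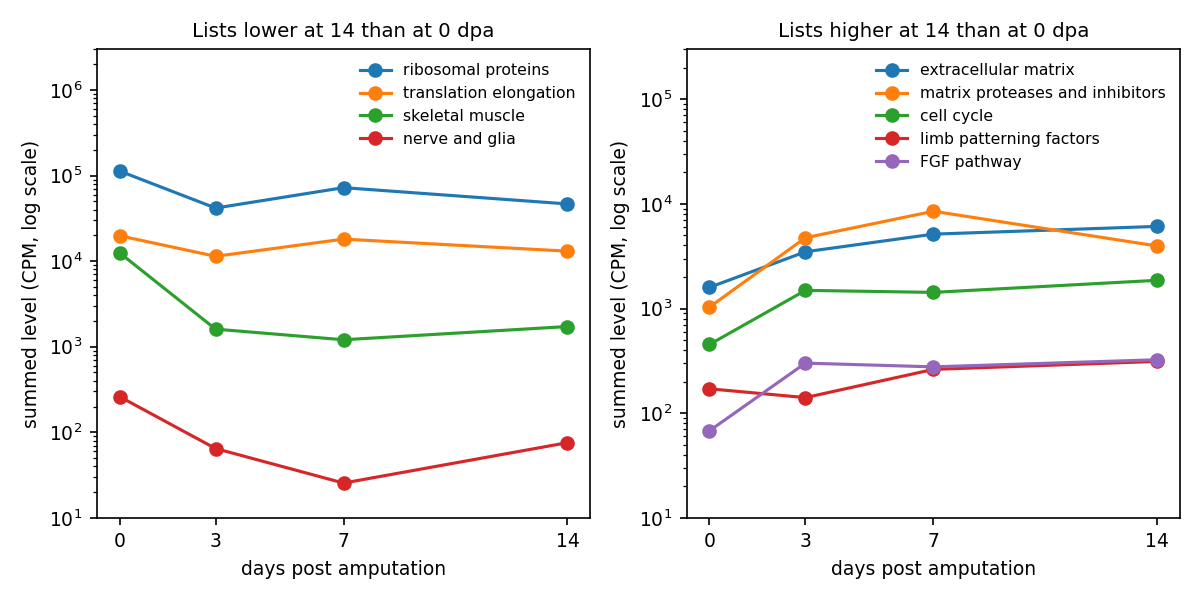
Summed level of each list (y axis, CPM on a log scale) in the 4 mRNA libraries by days post amputation (x axis), 1 library a point. Skeletal muscle and nerve lie far below their 0 dpa level at every later stage and are higher at 14 than at 7 dpa, ribosomal proteins are nearest to 0 dpa at 7 dpa, and the sum of matrix proteases and inhibitors is highest at 7 dpa.

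Markers of other cell types in the fin were measured beside these lists. Their part in the differences above was not tested. Of 17 components with an epidermal name, 13 passed the filter. Of these 8 were higher and 2 lower, beside 67.5% and 8.95% of all components. The median was 1.12 by totals, near that of all components, and -0.12 under TMM. krt15, an epidermal keratin, was level by totals, with 1828 CPM at 14 dpa and 1789 CPM at 0 dpa. col7a1, the anchoring fibril collagen, had 13848 reads at 14 dpa and 2043 at 0 dpa, and pkp1b, a desmosome protein, had 27694 at 14 dpa and 4659 at 0 dpa. muc5b, a mucin of secretory cells, had 846 reads at 14 dpa and 8515 at 0 dpa. The summed level was 5810 CPM at 14 dpa and 3842 CPM at 0 dpa, and 1 member was listed at 0 in the 14 dpa library and 1 in the 0 dpa library.

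Of 29 components with a leukocyte name, 24 passed the filter. Of these 20 were higher and 2 lower, beside 67.5% and 8.95% of all components. The median was 1.29, or 0.23 relative to the median component. Under TMM 12 were higher and 4 lower, beside 31.4% and 25.3%. The summed level was 2491 CPM at 14 dpa and 2244 CPM at 0 dpa, of which most was cd74a, the invariant chain of antigen-presenting cells, with 1627 CPM at 14 dpa and 1965 at 0 dpa. csf1ra, the receptor of macrophages and pigment cells, had 1360 reads at 14 dpa and 30 at 0 dpa. fpr1, a chemoattractant receptor of neutrophils, had 1394 reads at 14 dpa and 94 at 0 dpa. lyz, lysozyme, was lower in both components past the filter, with 323 reads at 14 dpa and 689 at 0 dpa in 1, while the other had 89 at 14 dpa and 442 at 0 dpa. alas2, the haem synthesis enzyme of red cells, was the 1 erythroid component past the filter, with 7630 reads at 14 dpa and 1362 at 0 dpa.

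Skeletal genes were mixed. Of 12 components, 8 passed the filter, 5 higher and 2 lower, beside 67.5% and 8.95% of all components. The median was 0.79 by totals, below that of all components, and -0.38 under TMM. sox5, a factor of cartilage differentiation, had 348 reads at 14 dpa and 19 at 0 dpa, beside 77 at 3 dpa and 33 at 7 dpa. acp5a, the acid phosphatase of osteoclasts, had 2187 reads at 14 dpa and 789 at 0 dpa, and 9328 at 7 dpa. alpl, the alkaline phosphatase of mineralising cells, had 541 reads at 14 dpa and 239 at 0 dpa, which was higher by totals (1.09) but -0.034 under TMM and -0.12 with median of ratios. Its named transcripts held 7 reads at 14 dpa and 44 at 0 dpa. ostn, a secreted peptide of bone and muscle, had 68 reads at 14 dpa and 1437 at 0 dpa. frzb, a secreted Wnt inhibitor of cartilage, had 415 reads at 14 dpa and 994 at 0 dpa.

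Signalling by growth factors was examined next, by ligands, receptors and targets. In the FGF pathway all 9 components passed the filter. Of these 8 were higher and 0 lower, beside 67.5% and 8.95% of all components, with a median of 2.38. The ligand fgf10a, which drives limb outgrowth in mouse and chick, had 1133 reads at 14 dpa and 36 at 0 dpa, after 213 at 3 dpa and 640 at 7 dpa. The FGF feedback inhibitor spry4 had 310 reads in the 14 dpa library, whereas the 0 dpa library listed it at 0. Against a floor of 3 reads the ratio was 105, and the lower counting limit of the ratio was 85.2. spred1, another feedback inhibitor, had 1318 reads at 14 dpa and 86 at 0 dpa. spry2 was held in a large component, with 1448 reads at 14 dpa and 751 at 0 dpa, and a small one with 161 at 14 dpa and 175 at 0 dpa. The IGF pathway had 7 of 7 components higher, beside 67.5% of all components, with a median of 2.56. The binding protein igfbp5b had 649 reads at 14 dpa and 15 at 0 dpa, the receptor igf1ra had 2688 at 14 dpa and 221 at 0 dpa, and the mRNA-binding protein igf2bp3 had 866 at 14 dpa and 98 at 0 dpa. Both lists were small. Of the 7 IGF components, 4 had a name only from the list of mRNAs up in common, so that count is not independent. The 2 IGF components named in the ortholog table were both higher, with a median of 1.61. Of the 5 FGF components named there, 4 were higher and 0 lower. Under TMM the FGF list held 6 higher and 1 lower, and the IGF list 4 higher and 0 lower, beside 31.4% and 25.3%.

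The medians of the Wnt and BMP lists lay near that of all components. Of 11 Wnt components past the filter, of 16, 6 were higher and 2 lower, beside 67.5% and 8.95% of all components. Their median was 0.93. wnt5b had 2173 reads at 14 dpa and 264 at 0 dpa, and wnt10a had 297 at 14 dpa and 54 at 0 dpa. ryk, a Wnt receptor, had 635 reads at 14 dpa and 167 at 0 dpa. The secreted inhibitor wif1 had 882 reads at 14 dpa and 2308 at 0 dpa. Of 12 BMP and TGF-beta components past the filter, of 14, 7 were higher and 2 lower, beside the same shares of all components. Their median was 1.04 by totals and -0.083 under TMM. The activin receptor acvr2aa had 1330 reads at 14 dpa and 192 at 0 dpa, the activin subunit inhbab had 313 at 14 dpa and 25 at 0 dpa, and the signal transducer smad1 had 1377 at 14 dpa and 262 at 0 dpa. A component named twsg1a, a modulator of BMP outside the cell, had 425 reads at 14 dpa and 655 at 0 dpa (-0.56), but its named transcript held 15 of them at 14 dpa and none at 0 dpa.

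Limb patterning factors were highest at 14 dpa by totals in 11 of the 16 components past the filter, of 17. This held for 32.3% of all components by totals. Under TMM it held for 18.4% of all components, and the count for this list was not taken. Of the 16, 12 were over 1.5-fold higher than at 0 dpa and 1 lower, beside 67.5% and 8.95% of all components. The median was 1.15, close to that of all components. Against 3 dpa, however, 13 were higher and 0 lower, beside 7.60% of all components higher and 1.99% lower, and against 7 dpa 8 were higher and 0 lower, beside 24.1%. hoxa10b, a homeobox factor of the proximal limb, had 695 reads at 14 dpa and 100 at 0 dpa, after 79 at 3 dpa and 325 at 7 dpa. sp9, a factor of the growing fin edge, had 915 and 107 reads at 14 and 0 dpa. sp8b had 1871 reads at 14 dpa and 324 at 0 dpa, and 2719 at 7 dpa. osr2, a factor of joints and connective tissue, had 504 reads at 14 dpa and 1411 at 0 dpa, after 124 at 3 dpa. irx3a had 325 reads at 14 dpa and 400 at 0 dpa.

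The genes that the study tabulates as known from blastemas were then taken in full. All 25 components passed the filter, and 19 were over 1.5-fold higher at 14 dpa and 1 lower, a split near the 67.5% and 8.95% of all components, with a median of 1.30, or 0.24 relative to the median component. Under TMM 10 were higher and 5 lower, beside 31.4% and 25.3% of all components. In 15 of the 25 the 14 dpa library was the highest of the 4 by totals. It was the highest for 32.3% of all components by totals. Under TMM that share was 18.4%, and the count for this list was not taken. Of the 15, cxcl12, erbb2, bambia, hoxa11, mmp2 and msxe were below their 0 dpa level under TMM. The 11 genes selected for a common direction, partly on these libraries, are included and are no independent evidence.

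Among the matrix genes, mmp9, a gelatinase of wound epidermis, had 20957 reads at 14 dpa and 635 at 0 dpa, or 4.99 on the log2 scale (4.88 to 5.10), and 63573 reads at 7 dpa. mmp14, the membrane-bound activator of mmp2, had 694 CPM at 14 dpa and 102 CPM at 0 dpa. mmp2 itself had 431 CPM at 14 dpa and 313 at 0 dpa, within 1.5-fold. timp2, an inhibitor of these proteases, had 280 CPM at 14 dpa and 94.0 at 0 dpa.

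Among signalling genes, the ligand fgf20, which initiates the zebrafish blastema, had 130 reads at 14 dpa and 13 at 0 dpa, and 284 at 3 dpa. The ligand igf2b had 623 and 75 reads at 14 and 0 dpa. bmp2 was the 1 gene that was over 1.5-fold lower, with 167 reads at 14 dpa and 385 at 0 dpa (-1.02). bambia, a decoy of BMP receptors, had 33.2 CPM at 14 dpa and 16.7 CPM at 0 dpa, higher by totals but -0.24 under TMM and -0.33 with median of ratios. The receptor erbb3 had 57.7 CPM at 14 dpa and 7.64 at 0 dpa. Its partner erbb2 had 71.8 CPM at 14 dpa and 36.1 CPM at 0 dpa, higher by totals (0.97) but -0.25 under TMM and -0.34 with median of ratios. The chemokine cxcl12 had 8.65 CPM at 14 dpa and 5.62 at 0 dpa, within the limit. cx43, the gap junction protein that sets bone segment length in zebrafish fins, had 2460 reads at 14 dpa and 183 at 0 dpa, above the 1113 and 1155 reads at 3 and 7 dpa.

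Among nuclear genes, junb, an immediate early transcription factor, had 518 CPM at 14 dpa and 83.4 CPM at 0 dpa, and 855 CPM at 7 dpa. smarca4, a chromatin remodeller, had 60.2 CPM at 14 dpa and 12.5 CPM at 0 dpa. ttk, a kinase of the spindle checkpoint, had 768 reads at 14 dpa and 63 at 0 dpa. hspd1, the mitochondrial chaperone that the zebrafish blastema needs, had 204 CPM at 14 dpa and 61.1 at 0 dpa. ilf2 had 191 CPM at 14 dpa and 79.7 CPM at 0 dpa and rbbp6 had 2218 reads at 14 dpa and 940 at 0 dpa. Both were higher by totals and under TMM at 0.011 and 0.019, but lower with median of ratios at -0.086 and -0.075. The 4 homeobox genes were each highest at 14 dpa by totals. hoxa13, of the distal limb, had 1238 reads at 14 dpa and 490 at 0 dpa, after 384 at 3 dpa and 733 at 7 dpa. hoxa11 had 1086 and 895 reads at 14 and 0 dpa, within 1.5-fold, after 303 at 3 dpa and 623 at 7 dpa. msxc had 305 and 118 reads at 14 and 0 dpa. msxe had 486 at 14 dpa and 257 at 0 dpa, higher by totals (0.85) but -0.26 under TMM and -0.34 with median of ratios. her6, a Notch target, was level by totals with 23.1 CPM at 14 dpa and 20.7 CPM at 0 dpa.

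**Figure D5:**
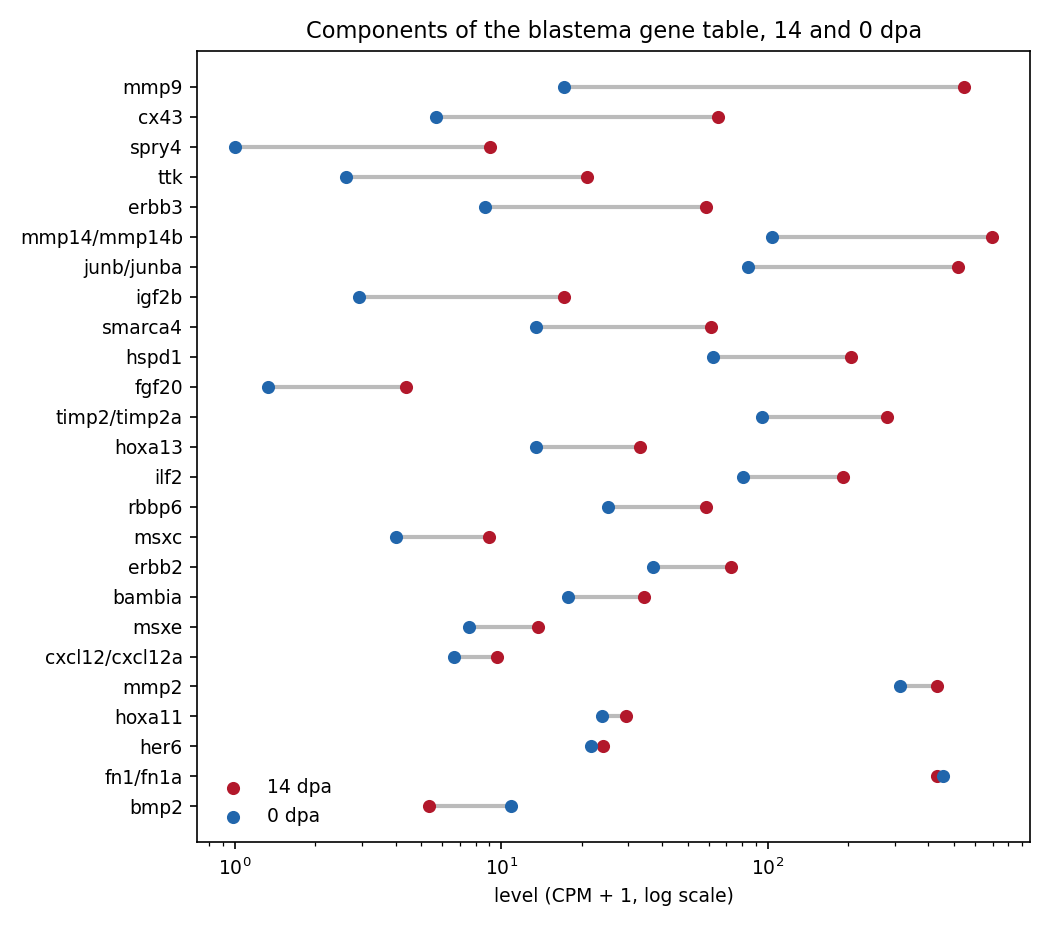
Level (x axis, CPM + 1 on a log scale) of the 25 components of the blastema gene table (y axis) at 14 dpa in red and 0 dpa in blue, joined by a grey line and ordered by the log2 change. The 14 dpa point lies right of the 0 dpa point for all genes except bmp2 and fn1, by most for mmp9 (546 CPM at 14 dpa against 16.2 CPM at 0 dpa before the 1 is added).

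A set of components carries a site that the study predicted for miR-21. A miRNA represses target mRNAs by pairing of its seed, mostly with their 3' untranslated regions. miR-21 had 4284013 of 6858045 miRNA reads at 14 dpa (62.5%) and 884320 of 6083774 at 0 dpa (14.5%). The mature sequence is printed with its seed, bases 2 to 8, in capitals, and beside it the 4 of the 19 listed sites that hold the exact complement of that seed, in capitals.
miR-21: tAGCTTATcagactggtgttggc
pdcd4: gttcatatccaatgcttATAAGCTa
chka: tttatggtcactggATAAGCTg
hsd3b7: tggccgtacagaattATAAGCTc
sort1: atgaggatctccttgaATAAGCTg
The 15 other listed sites do not hold these letters, and 11 of them are noted as paired with a bulge. The site of tgfbr2, a known target, is neither and is shown for contrast.
tgfbr2: tttaatgctggaagcagatgagctc
These are the miRNA and sites as the study lists them for the bichir.

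By component, 12 of the 19 were over 1.5-fold higher at 14 dpa and 3 lower, beside 67.5% and 8.95% of all components. The median was 0.87, or -0.19 relative to the median component. Under TMM the split was 3 higher and 7 lower, beside 31.4% and 25.3% of all components, so the direction of the list is set by the scaling. The study listed sites for predicted targets that it reports as downregulated in zebrafish, bichir and axolotl, in the bichir at 7 against 0 dpa. That choice rested partly on the 0 dpa library used here, so these directions are no independent evidence. By qPCR at the same stages, the study also reports pdcd4, tgfbr2, rgs5, chka and bcl2l13 as downregulated. The values here are of a later stage, 14 dpa. At 7 against 0 dpa the list median was 0.64 by totals, beside 0.85 for all components. At that stage tgfbr2 was at -0.40 and chka at -0.37, while rgs5 was at 0.88, pdcd4 at 0.44 and bcl2l13 at 0.38. Why these values differ from the study's calls was not tested. Of the 4 with an exact seed match, pdcd4, an inhibitor of translation, had 822 reads at 14 dpa and 511 at 0 dpa, a change of 0.67 by totals but -0.49 under TMM and -0.58 with median of ratios. The transcript that bears its site had 331 reads at 14 dpa and 438 at 0 dpa, and all other transcripts of the component had 491 at 14 dpa and 73 at 0 dpa. chka, choline kinase, had 1887 reads at 14 dpa and 2015 at 0 dpa. Its site-bearing transcript had 1209 reads at 14 dpa and 986 at 0 dpa. hsd3b7, an enzyme of bile acid synthesis, had 603 at 14 dpa and 516 at 0 dpa, whereas its site-bearing transcript had 116 at 14 dpa and 292 at 0 dpa, a log2 change of -1.07. sort1, the sorting receptor sortilin, had 375 at 14 dpa and 131 at 0 dpa, and its site-bearing transcript 44 at 14 dpa and 29 at 0 dpa. By totals, none of these 4 components was over 1.5-fold lower, and of their site-bearing transcripts only that of hsd3b7 was. Over the 19 site-bearing transcripts, 8 were over 1.5-fold higher and 4 lower, with a median of 0.31. Over all unsummed transcripts with a mean of at least 1 CPM, 28558 were higher and 4867 lower, together 77.2%.

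The 3 components over 1.5-fold lower were mbp, eif4a1 and tgfbr2. mbp, at -1.94, is the myelin gene described with the nerve list, of which 4 of 7 members were lower. Its site-bearing transcript had 255 reads at 14 dpa and 2953 at 0 dpa (-3.32). eif4a1, the helicase of translation initiation, had 21517 reads at 14 dpa and 62839 at 0 dpa (-1.52). tgfbr2, a TGF-beta receptor, had 5244 reads at 14 dpa and 11278 at 0 dpa (-1.07). Its count was 5809 at 3 dpa and 9443 at 7 dpa. Of the components above 0 dpa, the largest changes were in the kinase rps6ka1 with 6659 reads at 14 dpa and 1312 at 0 dpa (2.34), the adaptor shc1 with 4853 at 14 dpa and 1122 at 0 dpa (2.10), and the ephrin ligand efna5 with 494 at 14 dpa and 94 at 0 dpa (2.03). The site-bearing transcripts differed less, with 1613 reads at 14 dpa and 963 at 0 dpa for rps6ka1 (0.75) and 1529 at 14 dpa and 934 at 0 dpa for shc1 (0.72). The site-bearing transcript of efna5 had 78 reads at 14 dpa and 94 at 0 dpa, so its reads at 14 dpa came mostly from other transcripts, which were listed at 0 at 0 dpa. mapk14, a stress kinase, had 6421 reads at 14 dpa and 2291 at 0 dpa, and rgs5 was at 1.43. The site-bearing transcript of mapk14 had 2351 reads at 14 dpa and 1582 at 0 dpa (0.59). That of rgs5 had 655 at 14 dpa and 371 at 0 dpa (0.79). The component shared by the names pm20d1 and mia3 was at 1.17 by totals and -0.070 under TMM, and its site-bearing transcript had 46 reads at 14 dpa and 66 at 0 dpa. spry2, mfn2, tegt and mocs1 lay between 0.58 and 0.94 by totals, and each was below 0 under TMM. dnajc18 and bcl2l13 were within 1.5-fold, at 0.20 and 0.11.

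The largest changes of named genes outside the lists followed. glipr2, a protein of the Golgi surface, had 9286 reads at 14 dpa and 44 at 0 dpa, with only 77 at 3 dpa and 96 at 7 dpa. Its log2 change of 6.84 (6.60 to 7.06) was the highest of all named components with a mean of at least 10 CPM. Its named transcript had 2940 reads at 14 dpa and 44 at 0 dpa. lmnb2, the nuclear lamin B2, had 2915 and 12 reads at 14 and 0 dpa, with 1922 at 3 dpa and 818 at 7 dpa. dedd1, a protein of the death-effector family, had 4679 reads at 14 dpa and 144 at 0 dpa and had come from the list of mRNAs down in common. Its named transcripts held 321 of these reads at 14 dpa and 109 at 0 dpa. In the other direction fbp1a, a gluconeogenesis enzyme, had 130 reads at 14 dpa and 7462 at 0 dpa (-5.45). atp1a1b, a sodium pump subunit, had 242 at 14 dpa and 6586 at 0 dpa, and the small heat shock protein hspb1 had 865 at 14 dpa and 17928 at 0 dpa.

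The most abundant named genes included eef1a1l1 and the ribosomal and enolase components described above. After eef1a1l1, the leaders at 14 dpa were zgc:92061 with 4264 CPM, against 4751 CPM at 0 dpa, rpl4 with 2163 CPM at 14 dpa and 4764 CPM at 0 dpa, and rplp0 with 2089 CPM at 14 dpa and 3098 CPM at 0 dpa. s100s, a calcium-binding protein, had 1768 CPM at 14 dpa and 1612 at 0 dpa, cfl2, the actin-severing cofilin, had 1648 CPM at 14 dpa and 807 at 0 dpa, and eif5a had 1643 CPM at 14 dpa and 1053 at 0 dpa. By totals cfl2 and eif5a were over 1.5-fold higher at 1.03 and 0.64, but under TMM they were at -0.22 and -0.60 and with median of ratios at -0.31 and -0.70. ybx1, an mRNA-binding protein, had 1536 CPM at 14 dpa and 4557 CPM at 0 dpa. Ribosomal genes among the leaders at 0 dpa were rps12 at 1150 CPM at 14 dpa and 3413 CPM at 0 dpa, rpl3 at 1356 CPM at 14 dpa and 3243 CPM at 0 dpa, and rpl7a at 1170 CPM at 14 dpa and 3135 CPM at 0 dpa.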

How the data were processed

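Each mRNA library was made from pooled fin tissue, 1 for each of 0, 3, 7 and 14 dpa. Trimming was by Trimmomatic, assembly by Trinity and read counting by RSEM, per the study's methods and processing notes, with no versions given in the sources used here. The authors deposited log2 values named log CPM, but 2 raised to each value was whole within 0.01% for 100% of values above 0, so the deposited log2 values were read as unscaled read counts. A listed 0 (0 or 1 read) was read as 0. Of 132496 rows, 4760 exact repeats were dropped, leaving 127736 transcripts in 94050 components. Counts per component were divided by the column total. With 1 library per group no test was made. Components with a mean of at least 1 CPM over the 4 mRNA libraries were called when the log2 change of CPM + 1 passed 0.58 either way. Exact Clopper-Pearson 95% intervals of the counts in both libraries were carried to that scale.

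Alternatives were TMM (trimming 30% of ratios and 5% of abundances), median of ratios, other totals, pseudocounts, filters, thresholds, thinning, unsummed transcripts, a listed 0 as 1 read and repeats kept. Members found in the ortholog table were taken apart after the data had been seen, and some of them were also in the lists of mRNAs up or down in common. The comparison, the gene lists and their members were chosen with earlier results of these data known. Named genes were all of the blastema table and the miR-21 sites, the 10 largest changes each way with a mean of at least 10 CPM, the 10 most abundant in each library, the 3 largest each way in each list, and 2 unnamed components each way, except 1 gene that is not reported here. Symbols came from tables of the study held in part, with 0 identifiers found in the RefSeq table, so no position is given. The code was tested on simulated data. Python 3.11.15, numpy 2.4.6, pandas 2.3.3 and scipy 1.17.1 were used.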

Additional observations from a re-analysis of the deposited data

How the results depend on the processing

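No paired analysis was possible because each group held 1 library. Scaling and the filter on low levels moved the counts most. The count of components over 1.5-fold higher at 14 against 0 dpa was 19470 by totals, 9054 under TMM, 8267 with median of ratios, 12753 with a pseudocount of 5 CPM, 31411 with no filter and 7673 with a mean of at least 10 CPM. The count over 1.5-fold lower was 2580 by totals, 7284 under TMM, 7824 with median of ratios, 1169 with a mean of at least 10 CPM, 1622 at a log2 threshold of 1 and 4867 for unsummed transcripts; more or fewer features were tested under the filters and without summing, and the cause of the scaling shift was not tested. Other alternatives stayed within 1.5 times for both counts.

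The share of components over 1.5-fold apart between 14 and 0 dpa was 56.7% under TMM, 77.2% for unsummed transcripts and 79.2% with a mean of at least 10 CPM. Between 14 and 3 dpa it was 6.94% under TMM and 14.1% unsummed, and between 14 and 7 dpa 22.6%, 39.0% and 27.9% under the same changes as for 0 dpa. Unsummed, the 10 most abundant features took 8.76% of reads at 14 dpa and 18.5% at 0 dpa.

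Among named genes over 1.5-fold apart, directions that turned under TMM and median of ratios were, with those values in that order, tegt (-0.37, -0.46), eif5a (-0.60, -0.70), spry2 (-0.26, -0.35), erbb2 (-0.25, -0.34), msxe (-0.26, -0.34), mfn2 (-0.31, -0.41), pdcd4 (-0.49, -0.58), mocs1 (-0.54, -0.62), mia3/pm20d1 (-0.070, -0.17), alpl (-0.034, -0.12), cfl2 (-0.22, -0.31) and bambia (-0.24, -0.33). With median of ratios alone rbbp6 (-0.075) and ilf2 (-0.086) turned. A further 12 named components within 1.5-fold by totals, such as hoxa11 and mmp2, also turned under TMM, to between -1.21 and -0.49. List medians that turned were smooth muscle (-0.92, -1.02), epidermis (-0.12, -0.21), cartilage and bone (-0.38, -0.47), BMP and TGF-beta pathway (-0.083, -0.17) and miR-21 sites (-0.37, -0.46). Without the filter the nerve and glia median was 0.044. Taken by the named transcript of most reads, pdcd4 was at -0.34, ctsla at 1.83, efna5 at -0.17 and alpl at -0.25. With 1 library a stage, depth limits only low components, while the spread between fish cannot be measured.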
